A study of Drosophila melanogaster with 9 samples.

Results

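The genes described here encode the proteasome of Drosophila melanogaster: 47 of the 7539 genes in the deposited testis RNA-seq table, chosen by name as every Prosalpha, Prosbeta, Rpt or Rpn gene with a number. Of these, 32 are general subunits and 15 are paralogs with T or R after the number. RNA was sequenced from testes of 3 to 5 day old adults kept at 25 °C, with 2 libraries of the Dm310s mutant, in which the miR-310 microRNA cluster is knocked out, and 2 libraries of the Control. Both fly lines go back to EP(2)2587, a P-element stock of the Szeged Stock Center whose insertion is listed as P(3)l(2)05510EP2587, so the control carries that background too. Separate dissections for the libraries of a genotype are not stated, so the p-values cover library-to-library spread that may be purely technical. RefSeq lists 48 gene symbols of this form, and the remaining symbol, Prosalpha1R, was not analysed here.

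The proteasome is the protease that degrades proteins marked with ubiquitin. Its core particle is a barrel of stacked rings, in which alpha subunits form the outer rings and gate the entry, and beta subunits form the inner rings and hold the catalytic sites. The regulatory particle caps the barrel: Rpt subunits form a ring of ATPases that unfolds the substrate, and Rpn subunits recognise ubiquitin, remove it and hold the cap together. In Drosophila, several subunits have a duplicated gene expressed in the male germ line, and loss of the alpha-ring paralog Prosalpha6T is known to make males sterile. Every RNA-seq library came from testes, so the restriction of the paralogs to this organ was not tested.

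Levels are given as log2(RPKM), read number scaled to transcript length and library size and put on the log2 scale, so that levels of different genes can be compared per length. All 21 listed germ line markers were in the table, with a summed RPKM of 4500 and 4390 in the control libraries and 4810 and 4730 in the mutant libraries. All 19 listed accessory gland markers were present too, with a summed RPKM of 6060 and 6200 in the control libraries and 4970 and 5910 in the mutant libraries, so the libraries also held RNA of the male tract. In such bulk samples, fewer cells of a type and less RNA per cell cannot be told apart. Read depth is unknown, since no counts were given.

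The first question is how the paralogs stood against the general subunits in testis RNA. The 15 paralogs belong to 11 families, 7 with 1 paralog and 4 with 2, each family being a general subunit and the paralogs that carry its name and number. In 9 of the 11 families the paralogs together made up more than 50% of the family's RPKM in every library. Where a family has 2 paralogs, 2 genes were summed against 1, so 50% is not the share of equal levels there. The exceptions were the Prosalpha3 and Rpn13 families, where the paralog stayed below 50% in every library. Taken gene by gene, 10 paralogs had a higher level than their general subunit in each of the 4 libraries, and 5 had a lower level in each. As a class the paralogs were nevertheless less abundant than the general subunits: the median paralog level lay below the median general level by 0.70 and 0.73 on the log2 scale in the control libraries and by 0.95 and 0.83 in the mutant libraries. The general subunits that have a paralog were themselves low, with a median level of 4.45 (n = 11 genes, mean over libraries) against 5.56 for the 21 general subunits with no paralog in the table.

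In the alpha ring, Prosalpha6T was the most abundant paralog of all. Its level was 6.13 and 6.07 in the control libraries and 6.16 and 5.97 in the mutant libraries, at the 91.0th percentile of all genes in the table. Its general counterpart Prosalpha6 stood at 4.49 and 4.44 in control and 4.42 and 4.44 in mutant libraries. No library of the general gene reached any library of the paralog, and the mean ratio was 3.1-fold in favour of Prosalpha6T (log2 ratio 1.63 ± 0.09, SD over 4 libraries). The Prosalpha4 family has a pair of paralogs. Prosalpha4T2 stood at 5.33 and 5.35 in control libraries against 5.31 and 5.33 in mutant libraries, a log2 ratio of 2.34 ± 0.17 (SD, n = 4 libraries) to Prosalpha4. Prosalpha4T1 was lower, with 3.60 and 3.75 in control and 3.70 and 3.26 in mutant libraries. Prosalpha4 itself stood at 3.14 and 2.96 in control and 2.75 and 3.10 in mutant libraries, so every library held more RNA of either paralog than of the general gene. Together the pair made up 85.3 to 88.7% of the family's RPKM. Prosalpha3T went the other way: it stood at 3.89 and 3.92 in control and 4.0 and 3.93 in mutant libraries, 3.54-fold below Prosalpha3, which ranged from 5.68 to 5.83.

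In the beta ring, the families of 2 of the catalytic subunits carry a pair of paralogs each. Prosbeta5, which holds the chymotrypsin-like site, ranged from 4.62 to 4.71. Prosbeta5R1 lay above it at 5.54 and 5.68 in control and 5.72 and 5.53 in mutant libraries, while Prosbeta5R2 lay below it at 3.63 and 3.46 in control and 3.58 and 3.42 in mutant libraries. The paralogs of this family thus differed from each other in level and lay on either side of the general gene in every library. Prosbeta2, which holds the trypsin-like site, ranged from 4.39 to 4.65. Prosbeta2R1 stood at 4.76 and 4.79 in control and 4.71 and 4.64 in mutant libraries, and its log2 ratio to Prosbeta2 was small but positive in every library, at 0.21 ± 0.15 (SD, n = 4 libraries). Prosbeta2R2 stood lower, at 3.85 and 3.87 in control and 4.0 and 3.74 in mutant libraries. In the structural Prosbeta4 family, Prosbeta4R2 (4.54 and 4.62 in control, 4.53 in each mutant library) lay just above Prosbeta4 (4.40 to 4.52) in every library, by a log2 ratio of 0.09 ± 0.09 (SD, n = 4 libraries), a mean no larger than its spread. In the RefSeq annotation a single coding gene, Or23a, comes between Prosbeta4R1 and Prosbeta4R2 in order, and it overlaps Prosbeta4R2. Or23a stood at 2.87 and 3.10 in control and 3.10 and 2.71 in mutant libraries. Its part in the level of Prosbeta4R2 was not tested. Prosbeta1, which holds the caspase-like site and has no paralog in the table, was among the highest members, with 6.30 to 6.41.

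In the ATPase ring, each of the 3 families with a paralog had the paralog above the general gene. Rpt3R stood at 4.22 in each control library and at 4.11 and 4.08 in the mutant libraries. Rpt3 was the lowest member of all, at 2.11 and 1.64 in control and 2.40 and 2.27 in mutant libraries, and the paralog made up 76.6 to 85.7% of the pair's RPKM. Rpt6R stood at 5.15 and 5.22 in control and 5.30 and 5.31 in mutant libraries, 2.08-fold above Rpt6, which varied little (4.17 to 4.21). Rpt4R and Rpt4 differed by 1.7-fold on average and are given below with the genotypes. The other ATPase genes, Rpt1, Rpt2 and Rpt5, have no paralog in the table, and their mean levels were 5.58, 5.65 and 4.56.

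Among the Rpn subunits, Rpn12R had the largest mean ratio of all 15 paralogs, although Prosalpha4T2 had the larger ratio in mutant replicate 1. It stood at 5.71 and 5.79 in control and 5.70 and 5.86 in mutant libraries, while Rpn12, a subunit of the lid, stood at 3.38 and 3.08 in control and 3.29 and 3.24 in mutant libraries. The groups of values are far apart, with a mean ratio of 5.72-fold (log2 ratio 2.52 ± 0.18, SD over 4 libraries). Rpn13R, the paralog of a ubiquitin receptor, stood at 4.13 and 4.19 in control and 4.39 and 4.43 in mutant libraries. This was 2.9-fold below Rpn13, which had 5.79 and 5.78 in control and 5.92 and 5.80 in mutant libraries.

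**Figure D1:**
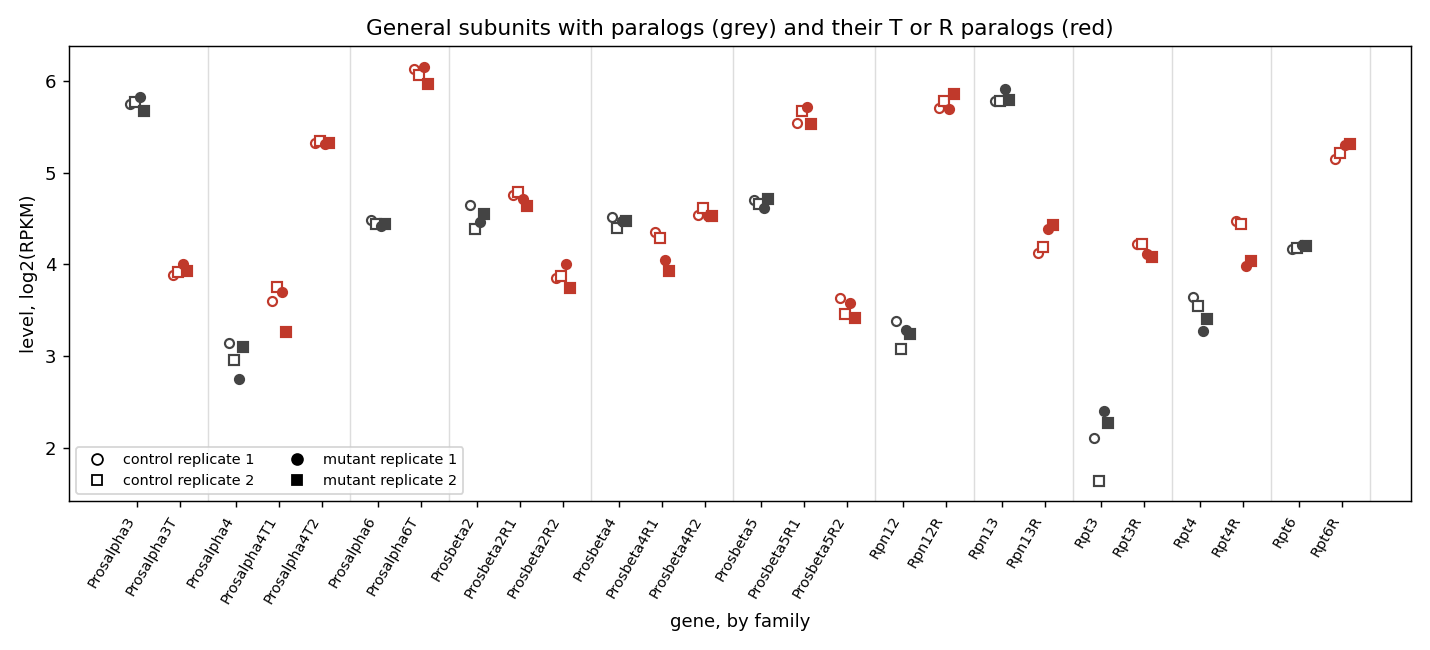
Level of each general subunit that has a paralog (grey) and of each paralog (red), as log2(RPKM) in every library; open symbols are control and filled symbols mutant libraries. Rpn12R, Prosalpha4T2, Rpt3R and Prosalpha6T lie clear above their general genes, and Prosalpha3T and Rpn13R clear below them.

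**Figure D2:**
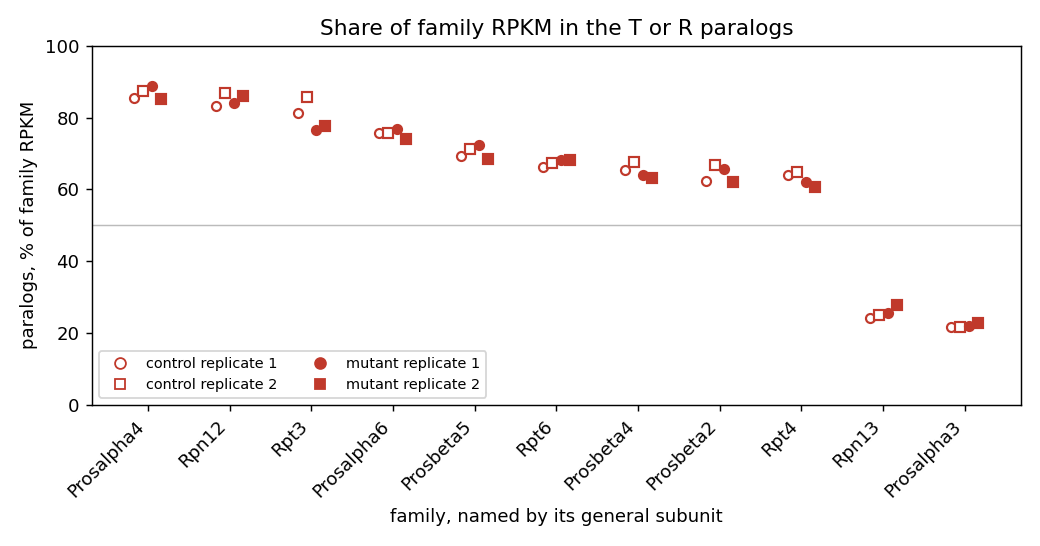
Paralogs as a percentage of the RPKM summed over general subunit and paralogs, for each of the 11 families and 4 libraries, with a line at 50%. Only the Rpn13 family (24.1 to 27.9%) and the Prosalpha3 family (21.6 to 22.9%) lie below the line. In the 4 families with 2 paralogs, the share sums 2 genes against 1.

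The levels of the general subunits differed by 20.9-fold between the lowest, Rpt3 (mean 2.11), and the highest, Prosbeta3 (mean 6.49), a structural beta subunit. In the alpha ring Prosalpha1 was highest (6.05 to 6.09) and Prosalpha4 lowest, and in the beta ring Prosbeta4 had the lowest mean, with a range that overlapped that of Prosbeta2. Among the ATPases Rpt2 was highest (5.56 to 5.75), and among the Rpn genes Rpn12 was lowest and Rpn13 had the highest mean, 5.82, with Rpn6 at 5.80 and overlapping ranges. Ordered by level, the sequence began with Rpt3, Prosalpha4, Rpn12, Rpt4 and Rpt6, each of which has a paralog. The ranges of Rpn12 (3.08 to 3.38) and Rpt4 (3.27 to 3.65) overlapped, as did those of Rpt6 (4.17 to 4.21) and the next gene, Rpn8 (4.15 to 4.28), so these neighbours did not differ beyond their spread. The range of Prosalpha4 (2.75 to 3.14) overlapped that of Rpn12 as well, but within each library Prosalpha4 lay below Rpn12. Rpt3 lay below every other general subunit in each library.

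Of these 5 genes with the lowest means, 4 lie on the X chromosome by the RefSeq annotation of Release 6, and they are all of the X-linked general subunits. The place of Rpt6 among the 5 is a tie, since Rpn8 lay below it in both mutant libraries. This arrangement was noticed after the values were seen. Each of the 4 has a paralog in the table, and all 5 of their paralogs are autosomal, while 7 of the 28 autosomal general subunits have a paralog. Conversely, the 2 paralogs on the X, Prosbeta2R1 and Rpn13R, have autosomal general genes. The median level of the 4 X-linked general subunits lay below that of the 28 autosomal ones by 1.99 and 2.12 in the control libraries and by 2.46 and 2.20 in the mutant libraries. Having a paralog is mixed into this gap. Taken as means over libraries, the median was 3.23 for the 4 X-linked genes and 4.51 for the 7 autosomal ones with a paralog. It was 5.56 for the 21 autosomal ones without a paralog. Over all genes of the table, the median of 1048 X-linked genes lay below that of 6459 autosomal genes by 0.25 and 0.24 in control and by 0.17 and 0.18 in mutant libraries. With 4 genes, and a table that holds only genes above a log2(RPKM) of 1 in each library, this is a description and no test was made.

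When the RPKM of a general gene and its paralogs were added up, the lowest places in the order went to Rpn8 (mean 4.2), Rpn1 (4.40) and Rpn3 (4.41), which have no paralog in the table. The summed log2 level of the 11 families had a median of 5.95 to 6.06 over the libraries, against 4.39 to 4.49 for their general genes alone and 5.49 to 5.60 for the 21 general subunits without a paralog. Prosalpha4 moved from a mean of 2.99 alone to 5.91 with its paralogs, Rpn12 from 3.25 to 6.0 and Rpt6 from 4.19 to 5.81. Rpt3 and Rpt4 with their paralogs were the lowest families, at 4.48 and 4.90. The SD over the 32 subunits was 1.00 to 1.06 within a library for the general genes alone and 0.65 to 0.67 for the summed levels. The columns of the table are nearly equal once sorted, so the deposited values may have been normalised further, and sums and percentages of RPKM hold only on the scale of the table. Adding positive values to low genes can only raise them, and reads that fit a paralog and its general gene equally may have been split by the authors' counting, which is not described in the sources used here.

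**Figure D3:**
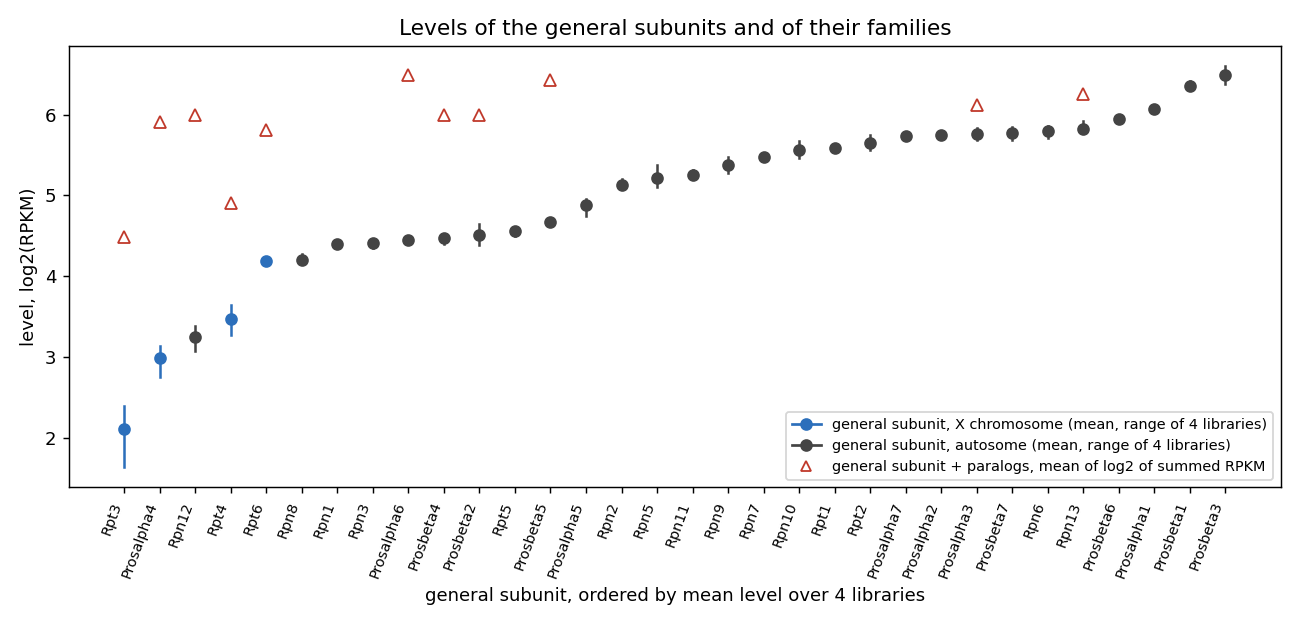
Mean log2(RPKM) of the 32 general subunits with the range over 4 libraries (circles and bars, blue for the X chromosome), and the level of the 11 families after adding the paralogs (triangles). The 4 X-linked genes are among the 5 with the lowest means, Rpt6 level with Rpn8, and the family levels lie between 4.48 and 6.49.

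The second question is whether proteasome genes differed between Dm310s mutant and control testes. Rpt4R, the testis form of an ATPase of the unfolding ring, was the only member to pass an adjusted p of 0.05. It fell from 4.48 and 4.44 in the control libraries to 3.98 and 4.04 in the mutant libraries. Both mutant libraries lay below both control libraries, and the difference of -0.45 on the log2 scale (SE 0.07) had an adjusted p of 0.0458 in limma. That is 1 of 47 members called, or 1 lower and 0 higher, where 1.50% of all 7539 genes were called, 0.955% lower and 0.544% higher. The call rested on every library: leaving out any of the 4 gave an adjusted p from 0.0988 to 0.237, with a difference of -0.42 to -0.48, and a fit without a variance trend gave 0.0628. A list of gut markers, of which 7 of 10 were in the table, had a summed RPKM of 61.7 and 63.7 in control and of 148 and 240 in mutant libraries. Of the 7, 6 had a positive difference, the largest being 4.59 for alphaTry, and LysE differed by -0.00. Among them limma called 2 higher, alphaTry and LysD. Adh, the measured member among 8 fat body markers, had levels of 3.49 and 3.36 in control and 4.22 and 4.39 in mutant libraries, and was called higher. Accessory gland markers had a lower summed RPKM in both mutant libraries, as given above, and 1 of the 19 was called lower. Gene by gene the list did not go 1 way: 11 of the 19 had a positive and 8 a negative difference, with a median of 0.018. The part of these tissues in the difference of Rpt4R was not tested.

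The general gene of this pair, Rpt4, also stood lower in the mutant, at 3.65 and 3.55 in control against 3.27 and 3.41 in mutant libraries. The groups did not overlap, but the difference of -0.25 (SE 0.09) did not pass (adjusted p 0.24 in limma). The pair's summed RPKM was 34.8 and 33.4 in control and 25.4 and 27.1 in mutant libraries. Rpt4R exceeded Rpt4 by 0.83 and 0.89 in control and by 0.71 and 0.62 in mutant libraries, a shift of the log2 ratio by -0.20. For this and the other 14 paralogs, an exact two-sided permutation test of the ratio between 2 and 2 libraries cannot go below p = 0.333, so it could call no shift in any ratio. Rpt4 overlaps wuho in the annotation, and wuho differed by -0.09 (SE 0.12).

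No other paralog was called. Prosbeta4R1 came nearest: it stood at 4.35 and 4.29 in control libraries against 4.05 and 3.93 in mutant libraries, without overlap, a difference of -0.33 (SE 0.07, adjusted p 0.113). Its neighbour Prosbeta4R2 differed by -0.05 (SE 0.06), and the general gene Prosbeta4 by 0.01 (SE 0.07). Rpn13R differed by 0.25 (SE 0.06, adjusted p 0.149), with every mutant library above every control library. Rpt6R differed by 0.12 (SE 0.06) and Rpt3R by -0.13 (SE 0.06), with adjusted p of 0.359 and 0.371. For Prosalpha4T1 the mutant libraries themselves differed, at 3.70 and 3.26, and the interval of its difference, -0.58 to 0.20, was the widest among the paralogs. The most abundant paralogs had estimates near 0: Prosalpha6T differed by -0.04 (95% interval -0.24 to 0.16), Rpn12R by 0.03 (-0.16 to 0.21), Prosbeta5R1 by 0.01 (-0.21 to 0.23) and Prosalpha4T2 by -0.02 (-0.16 to 0.11).

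No general subunit was called by limma. The ones with the smallest p among the higher genes were Rpn5 and Rpn9, both subunits of the lid. Rpn5 stood at 5.10 in each control library and at 5.38 and 5.29 in the mutant libraries, a difference of 0.23 (SE 0.06, adjusted p 0.144). Rpn9 stood at 5.28 and 5.29 in control libraries against 5.46 and 5.47 in mutant libraries, a difference of 0.17 (SE 0.05, adjusted p 0.207). In both genes the groups were apart by more than the gap between replicates, but neither passed over all genes. Rpn9 overlaps CG10365 in the annotation, which differed by -0.02 (SE 0.06). Prosbeta3 differed by 0.16 (SE 0.06) and Rpt3 by 0.46 (SE 0.17), each with an adjusted p of 0.258. Prosbeta3 overlaps CG11980, which differed by 0.23 (SE 0.12), and the part of CG11980 in its level was not tested. Rpt3 stood at low levels in every library, and its control libraries, at 2.11 and 1.64, were the farthest apart of any general subunit. The log2 ratio of Rpt3R to Rpt3 accordingly was 2.11 and 2.58 in control and 1.71 and 1.81 in mutant libraries. Prosbeta7, a structural beta subunit, stood at 5.85 and 5.80 in control and 5.72 and 5.69 in mutant libraries (adjusted p 0.355).

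Counted over all members, the shares of differing genes lay near those of the whole table. At an unadjusted p under 0.05 in limma stood 8 of the 47 members, or 17.0%, against 17.7% of all genes. Of the 8, 5 were higher in the mutant, a direction with 8.18% of all genes, and 3 were lower, a direction with 9.47%. The groups of libraries did not overlap for 24 members, or 51.1%, against 50.4% of all genes. Of the 32 general subunits, 5 had an unadjusted p under 0.05, and 18 had a positive and 14 a negative difference, with a median of 0.011 beside 0.0045 for all genes, of which 51.3% had a positive and 48.6% a negative difference. Of the 15 paralogs, 3 had an unadjusted p under 0.05, and 6 had a positive and 9 a negative difference, with a median of -0.037. The median of the paralogs became -0.12 when mutant replicate 1 was left out and 0.025 when mutant replicate 2 was left out, so its sign rested on a single library. By subcomplex, the median difference was -0.01 for the 7 general alpha genes, -0.01 for the 7 general beta genes, 0.03 for the 6 general Rpt genes and 0.04 for the 12 general Rpn genes. Among the paralogs, the median absolute difference was 0.05 for the 4 alpha and the 6 beta genes. It was 0.13 for the 3 Rpt and 0.14 for the 2 Rpn paralogs. By class, the median absolute difference was 0.04 for general subunits, 0.06 for paralogs and 0.10 for all genes. The median absolute gap between control replicates was 0.05, 0.06 and 0.09 in the same order. A gap is between single libraries and a difference between means of 2 libraries, so the sizes are not like measures.

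**Figure D4:**
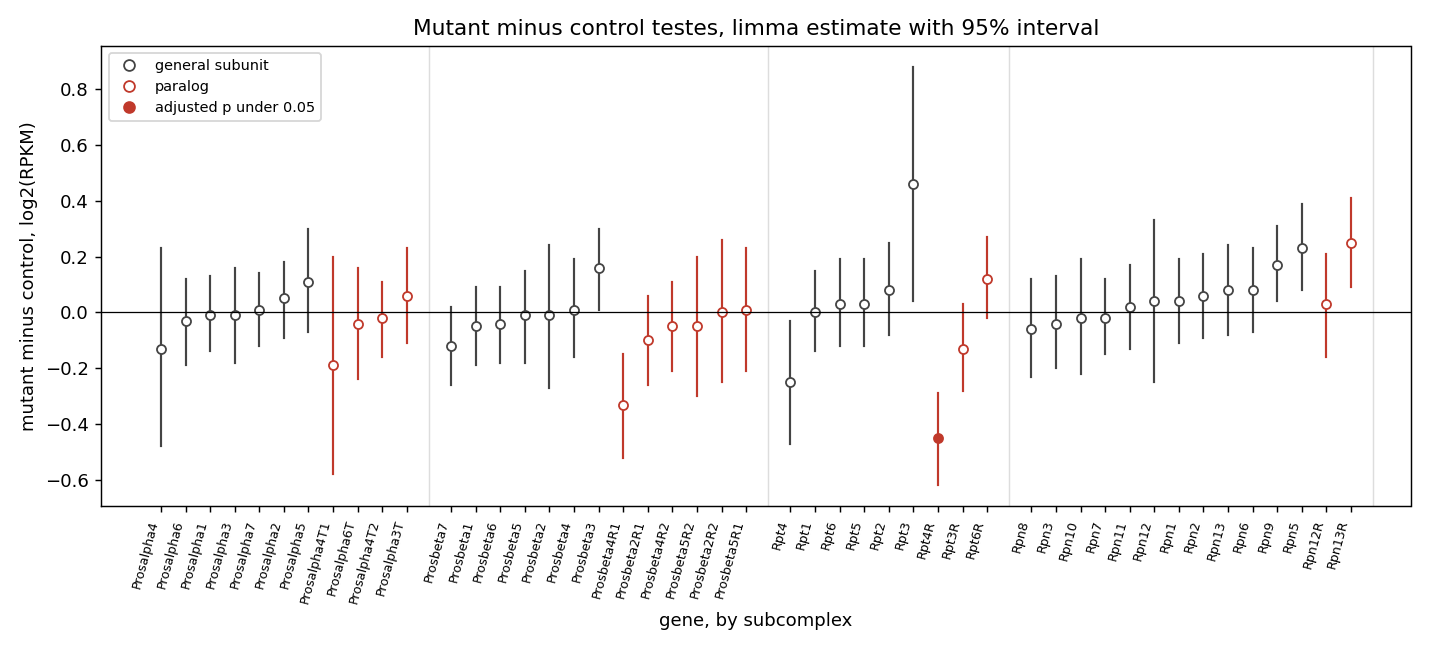
Difference between mutant and control testes on the log2(RPKM) scale for each of the 47 members, by subcomplex, with the 95% interval from limma; grey are general subunits and red paralogs. The filled point is Rpt4R, the member with an adjusted p under 0.05, at -0.45.

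None of the 47 members was marked in the table as a predicted target of miR-313-3p or of miR-313-5p, the arms of a microRNA of the deleted cluster. Over all genes of the table, 6.45% were marked for the 3p arm and 3.2% for the 5p arm. Rpt4R was thus called without being a marked target of either arm, and targets of other microRNAs of the cluster were not examined.

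The last group comprised genes that act with the proteasome. A list of assembly factors, activators, shuttle proteins, deubiquitinases, ubiquitin ligase parts and ubiquitin genes had 39 members in the table, of which limma called 0 over all genes, beside 1.50% of the whole table, and 6, or 15.4%, had an unadjusted p under 0.05, beside 17.7%. The list also holds mts, a phosphatase subunit outside the ubiquitin system. Ubi-p5E, a polyubiquitin gene, came nearest among the listed genes. It stood at 6.21 and 6.25 in control and 6.59 and 6.76 in mutant libraries, a difference of 0.45 (SE 0.07, adjusted p 0.0634). The list may not hold every ubiquitin gene, so the count of 0 covers its members only. CG11700, which comes next to Ubi-p5E in the table and is not listed, was called lower. Its difference was -0.48 (SE 0.06, adjusted p 0.0371 in limma). RpS27A, which encodes ubiquitin fused to a ribosomal protein, stood at 6.63 and 6.54 in control and 6.29 and 6.40 in mutant libraries (adjusted p 0.17). TER94, the unfoldase that hands ubiquitinated proteins to the proteasome, differed by 0.16 (SE 0.05, adjusted p 0.221), and its cofactor Npl4 by 0.21 (SE 0.07, adjusted p 0.225). Uch-L5R, a paralog of a proteasomal deubiquitinase, differed by -0.19 (adjusted p 0.226), and ntc, an F-box protein of the testis, by -0.14 (adjusted p 0.258). None of these 6 listed genes passed, 3 being higher and 3 lower in the mutant. Their groups did not overlap, but they were picked by their p. Over the whole list the groups did not overlap for 19 of 39 genes, or 48.7%, beside 50.4% of all genes. Sem1, the small subunit of the lid whose name falls outside the naming rule, ranged from 5.32 to 5.50 and differed by -0.03 (SE 0.08).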

How the data were processed

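Per the file headers, the authors deposited log2(RPKM) per gene for 4 testis libraries. The submitters' processing notes name TopHat without a version. How reads were counted, whether strand was used, and which build was mapped to is not given in the sources used here. In total 7539 genes were listed, all at or above 1.00 in each library. Sorted columns differed by at most 0.044. A further normalization of the distributions is not described and was not tested. No counts were recovered, so depth is unknown. RPKM was obtained as 2 to the power of the deposited value, so sums and percentages hold on that scale only.

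The genotypes were compared over all genes by limma 3.58.1 (R 4.3.3), using eBayes with a variance trend (3.46 prior degrees of freedom) and the log2 values as deposited, with no filter and no pseudocount, at a Benjamini-Hochberg adjusted p of 0.05. The script was tested on simulated data, with changes larger than any difference among the members, so that test does not cover differences of their size. Lists were described by counts and medians without a test. The members and lists were chosen with earlier results of these data known. Genes named were all paralogs and their general subunits, called members, the 5 smallest p in each direction, and the highest and lowest general subunit of each subcomplex. Chromosome arms and overlaps come from RefSeq Release 6; all 47 members matched by symbol. The members have no profile shared with another gene, but 14 of them overlap a gene of the table. The microRNA tables were not used, and motifs and protein sequences were not analysed. The alternatives were filtering at a mean of 2, log2(RPKM + 1), median centring, other variance models, a replicate block, single genes per shared profile and leaving out each library.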

Additional observations from a re-analysis of the deposited data

How the results depend on the processing

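The count of called members was 1, Rpt4R, with a minimum mean log2(RPKM) of 2, with log2(RPKM + 1), with median centring, with a robust variance prior, with 1 gene kept per shared profile and with the replicate block. It was 0 with no variance trend (adjusted p 0.0628 for Rpt4R, 7 members at an unadjusted p under 0.05) and 0 in each of the 4 fits that left out a library (4 to 6 members at an unadjusted p under 0.05). The median difference of the paralogs ranged from -0.12 to 0.025 over the fits without 1 library, and that of the general subunits from -0.0018 to 0.026. The replicate numbers are not said to pair libraries. The correlation of same-numbered deviations was 0.0599 across genes, which cannot settle whether libraries were paired. With the replicate block the count of all called genes went from 113 to 238 while members called stayed at 1. Over all genes, 143 were called with a robust prior, 81 without a trend, and 22, 34, 99 and 26 without control replicate 1, control replicate 2, mutant replicate 1 and mutant replicate 2. The number of paralogs above their general subunit was 10 under every alternative run, but these runs could not change it. Each pair had the same order in all 4 libraries, log2(RPKM + 1) keeps the order, and the filter removed no member. The median paralog level minus the median general level ranged from -0.71 to -0.84. The unknown depth limits what can be said of Rpt3, the lowest member.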
